A study of Homo sapiens with 4 samples.

Results

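The 7 genes described here carry eEF1 and eEF2 symbols: EEF1A1, EEF1B2, EEF1D, EEF1G, EEF1E1, EEF2 and EEF2K. They code for the cytosolic translation elongation factors eEF1 and eEF2, apart from EEF2K and EEF1E1. EEF2K codes for the kinase that acts on eEF2, and EEF1E1 for a tRNA synthetase complex component. All 7 are called eEF genes here. The 7 genes were picked by symbol from 23615 genes in the deposited table, with earlier results of these data known. All were among the 14555 genes with enough fragments to test. Both groups of libraries came from HEK293T, a human embryonic kidney line, that stably overexpressed Flag-SIRT7. The first group was RNA recovered with SIRT7, a nucleolar protein deacylase, on an anti-Flag gel (RNA immunoprecipitation, RIP, 2 libraries). The second was total input RNA of the same overexpressing cells (2 libraries), and ribosomal RNA had been removed from all 4 libraries. A mock pull-down from untagged cells is not analysed here, and every RIP value includes whatever RNA sticks to the gel. Nothing in the labels tells whether the 2 libraries of one kind stem from separate cultures, so p-values measure only the spread between these libraries, which may be technical.

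In elongation, eEF1A brings each aminoacyl-tRNA to the ribosome as a GTP complex. The eEF1B complex, built from eEF1Bα (EEF1B2), eEF1Bδ (EEF1D) and eEF1Bγ (EEF1G), reloads eEF1A with GTP. The GTPase eEF2 then moves the ribosome along the mRNA, and eEF2 kinase (EEF2K), which depends on calmodulin, phosphorylates eEF2 and slows this step. EEF1E1 codes for a small protein with a region like glutathione S-transferase, also called AIMP3 or p18, that sits in the multi-tRNA synthetase complex. The mRNAs of eEF1A, eEF1B and eEF2 are textbook members of the TOP class, whose transcripts start with a C followed by an unbroken run of pyrimidines, and whose translation follows mTOR activity.

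The sequences at the start sites are shown because this tract is the known feature shared by elongation factor mRNAs and was not used to choose the genes. RefSeq promoter entries (build GRCh38.p14) were found for 6 of the 7 genes by symbol, with 7 entries in all, and EEF1D is named only. Each window runs 5′ to 3′ on the gene's strand from 10 bases before the start to 20 bases into the transcript. Capitals mark the longest unbroken run of C and T that touches the 10 bases on either side of the start, or each such run where several have the same length.
EEF1A1 (chr6:73521013-73521042, minus strand): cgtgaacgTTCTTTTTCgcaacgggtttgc
EEF1B2, first entry (chr2:206159599-206159628, plus strand): aagtggCCCCagCCTCgaggccgggcgtct
EEF1B2, second entry (chr2:206159885-206159914, plus strand): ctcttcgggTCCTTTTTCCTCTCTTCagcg
EEF1G (chr11:62573872-62573901, minus strand): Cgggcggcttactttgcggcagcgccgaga
EEF1E1 (chr6:8102529-8102558, minus strand): TgcaggTCTCgcgtctgccaggagctacgg
EEF2 (chr19:3985444-3985473, minus strand): cgtcagcgTTCTCTTCCgccgtcgtcgccg
EEF2K (chr16:22206268-22206297, plus strand): gcccgCTTCTgctcaacctagaccagcccc

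The run was 9 bases long at EEF1A1 and at EEF2 and crossed the annotated start in both. It was 17 bases at the second EEF1B2 entry, while the first had 2 runs of 4 bases. At EEF2K it was 5 bases. EEF1E1 had 2 runs of 4 bases, and of the upstream one only the last base falls in the printed window. EEF1G had a run of 29 bases, but this lies in the promoter and only its last base falls in the window searched. It is printed apart for that reason, again with the run in capitals.
EEF1G, upstream of the start (chr11:62573901-62573930, minus strand): gCTCTCCTCTTTCCCCCTCCCTTCTCTCCC

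A run of at least 8 C or T bases, counted at its full length, touched the 10 bases on either side of the start at 15.2% of all 35116 promoters. The run of A or G that it makes on the other strand did so at 12.9%. None of the 7 member entries had a run of A or G of that length. Among 10398 tested genes with a promoter entry, 2122 (20.4%) had such a run, and their median log2 fold change was -0.07, against -0.03 over all 10398. A run of letters is a description of the annotated start and not a mapped 5′ end.

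Of the 7 genes, 6 were higher in RIP than in input and 1, EEF2K, was lower (edgeR quasi-likelihood test, Benjamini-Hochberg adjusted p below 0.05 over all tested genes). Calls were common in this comparison: 38.0% of tested genes were called higher and 39.7% lower. The median log2 fold change of the 7 was 1.02, against -0.03 for all tested genes. The RIP and input ranges did not overlap for any of the 7, as for 89.2% of all tested genes. Together the 7 genes took 3.41% and 3.44% of all fragments in the RIP libraries, against 1.92% and 1.97% in input. EEF1A1 and EEF1G made up most of this, with 2.87% ± 0.0235 in RIP and 1.51% ± 0.0282 in input (SD, n = 2 each). In bulk libraries of this kind a higher share of one RNA and a lower share of the others cannot be told apart.

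EEF1A1, the tRNA carrier, took the most fragments of the set. It had 491833 and 509097 fragments in RIP, and 217382 and 215895 in input, where it ranked first of all genes (second, behind the bait's own mRNA, in RIP). Scaled to a common library size with edgeR's TMM factors (CPM, the unit used from here on) it was at 24691 and 25245 CPM in RIP, against 9240 and 9763 CPM in input. Both RIP libraries lay well above both input libraries, a 2.63-fold rise (edgeR log2 fold change 1.39 ± 0.0676 SE, adjusted p = 3.4e-11). Its tissue-restricted paralog EEF1A2, which codes for a nearly identical protein, was at 34.8 and 39.1 FPKM in RIP, where EEF1A1 had 6978 and 7119 FPKM. Scaled by library, it was at 67.1 and 75.6 CPM in RIP and 33.0 and 36.2 CPM in input. EEF1A2 rose 2.06-fold (edgeR log2 fold change 1.04 ± 0.0864 SE, adjusted p = 1.78e-08). With the length trend described below taken out, its log2 fold change was 0.596, and on library totals it was 0.315, called higher in each.

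The subunits of the eEF1B exchange complex rose by unequal amounts. EEF1G, the structural γ subunit, was at 12070 and 11980 CPM in RIP, against 2231 and 2200 CPM in input. This was the largest change of the 7, a 5.43-fold rise (edgeR log2 fold change 2.44 ± 0.0688 SE, adjusted p = 6.302e-13), which placed it 103rd of 14555 tested genes. EEF1D, the δ subunit with exchange activity, was at 862.8 and 858.9 CPM in RIP, against 246.7 and 243.7 CPM in input. The pairs of libraries were close to each other and the 3.51-fold rise (edgeR log2 fold change 1.81 ± 0.068 SE, adjusted p = 2.879e-12) was far beyond their spread. EEF1B2, the α subunit with the same exchange activity, was at 978.2 and 940.7 CPM in RIP, against 474.1 and 474.0 CPM in input, a 2.02-fold rise (edgeR log2 fold change 1.02 ± 0.0672 SE, adjusted p = 1.221e-09).

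EEF2, the translocase, was at 5166 and 5185 CPM in RIP, against 2467 and 2622 CPM in input, a 2.03-fold rise (edgeR log2 fold change 1.02 ± 0.068 SE, adjusted p = 1.29e-09). Its rank by fragments was 17 in both RIP libraries, against 3 in both input libraries, although its share of fragments was larger in RIP (0.401% and 0.402%) than in input (0.32% and 0.335%). EEF2K went the other way. It had 588 and 619 fragments in RIP, against 1233 and 1083 in input, which is 29.5 and 30.7 CPM against 52.4 and 49.0 CPM. The kinase mRNA was 1.68-fold lower in RIP (edgeR log2 fold change -0.75 ± 0.0836 SE, adjusted p = 5.988e-07).

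EEF1E1, the synthetase complex component, was at 102.6 and 98.0 CPM in RIP, against 49.2 and 53.5 CPM in input, a 1.95-fold rise (edgeR log2 fold change 0.97 ± 0.0755 SE, adjusted p = 9.032e-09). The table also lists the read-through transcript EEF1E1-MUTED, which overlaps EEF1E1, and the authors' software divided fragments between both. The read-through took 12.8% and 25.9% of their summed fragments in RIP, and 43.4% and 27.1% in input. Its own values, 15.1 and 34.3 CPM in RIP and 37.7 and 19.9 CPM in input, overlapped between groups (log2 fold change -0.23, edgeR adjusted p = 0.4721; called lower on library totals, at -0.96, adjusted p = 0.007198). With both entries summed, the level was 118 and 132 CPM in RIP and 86.9 and 73.2 CPM in input, a log2 ratio of 0.64, smaller than for EEF1E1 alone. The sum does not depend on how fragments were split between these 2 entries. It was not corrected for length, and whether the read-through shares fragments with further entries was not tested.

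**Figure D1:**
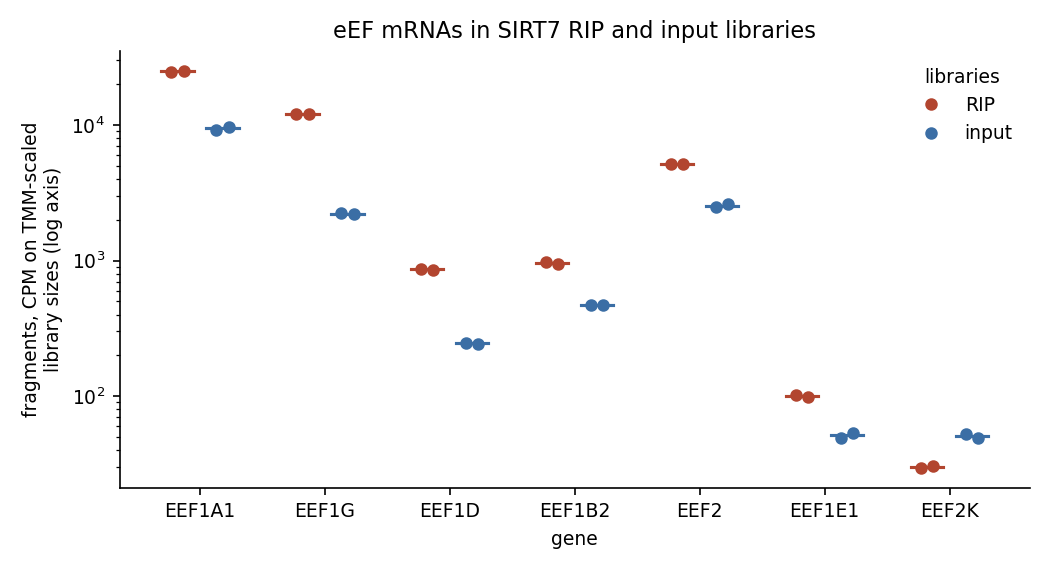
Fragments of each eEF gene in CPM on TMM-scaled library sizes (log axis), with RIP libraries in red and input libraries in blue; points are single libraries and bars the mean of 2. The RIP points lie above the input points for 6 genes and below them for EEF2K.

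Processed copies of elongation factor genes are frequent in the genome. The RefSeq table used here names 50 pseudogenes of EEF1A1, 8 each of EEF1B2, EEF1D and EEF1G, 1 of EEF1E1 and none of EEF2 or EEF2K. Only 1 of these, EEF1DP3, had an entry in the count table, with 3 and 2 fragments in RIP and 5 and 6 in input. How reads with several positions were handled is not given in the sources used here, so the split between these genes and their copies is uncertain. EEF1A1 has the most copies.

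Library scaling changed the size of these values but not their direction. Without TMM factors, on library totals, the median of all tested genes moved to -0.76, 17.0% of genes were called higher and 65.5% lower, and the 7 members were still called in the same directions. EEF1G was then at 1.71, EEF1D at 1.08, EEF1A1 at 0.66, EEF2 at 0.29, EEF1B2 at 0.29, EEF1E1 at 0.24 and EEF2K at -1.48 on the log2 scale. Relative to the median gene they stood where they were, from 2.47 for EEF1G to -0.72 for EEF2K.

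Length mattered more. Short mRNAs were generally high in RIP and long ones low: across 14555 genes, which are not independent replicates, Spearman's rho between log2 fold change and effective length was -0.60. The effective length was read from the table as scaled fragments over FPKM (fragments per kilobase and library size), in units of the median tested gene, and reflects the authors' gene models. It was 0.243 for EEF1B2, 0.314 for EEF1E1, 0.426 for EEF1D, 0.498 for EEF1G, 1.1 for EEF2, 1.23 for EEF1A1 and 2.69 for EEF2K. The mRNAs therefore ran from shorter than nearly all tested genes (4.04% were shorter than EEF1B2) to longer than nearly all (93.7% were shorter than EEF2K).

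**Figure D2:**
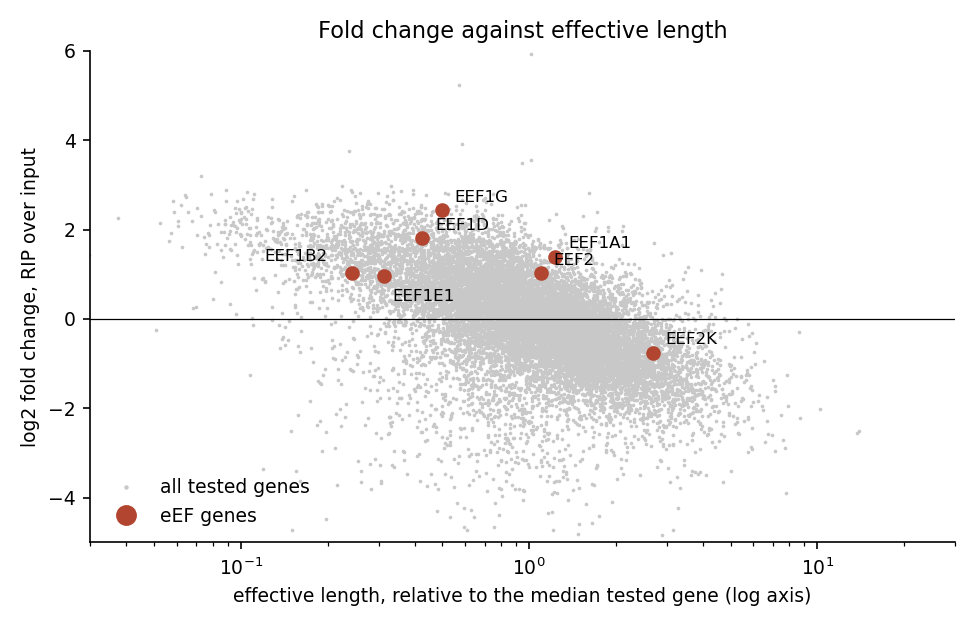
Log2 fold change of RIP over input for each tested gene (grey) against its effective length relative to the median gene (log axis), with the eEF genes in red; 27 genes fall outside the axes. EEF1G, EEF1A1, EEF2 and EEF1D lie in the upper part of the cloud at their lengths, while EEF1B2, EEF1E1 and EEF2K lie inside it.

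With the length trend taken out of the fit, 33.5% of tested genes were called higher and 34.7% lower, and the 7 members divided. EEF1G stayed high (edgeR log2 fold change 1.71 ± 0.067 SE, adjusted p = 2.811e-11), next to EEF1A1 (1.62, SE 0.068, adjusted p = 5.341e-11). These values exceeded those of 98.7% and 98.3% of tested genes. EEF2 was at 1.11 and EEF1D at 0.93, both still called. EEF1B2 turned to -0.34 (SE 0.0667, edgeR adjusted p = 0.0003212), lower than other mRNAs of its length. EEF1E1 was at -0.17 and lost its call (edgeR adjusted p = 0.05075). EEF2K turned to 0.26 (SE 0.0837, edgeR adjusted p = 0.01114), so its mRNA was low in RIP but not for a transcript of its length. The order changed as well: EEF1A1 moved ahead of EEF1D, and the α and δ exchange subunits ended with opposite signs.

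**Figure D3:**
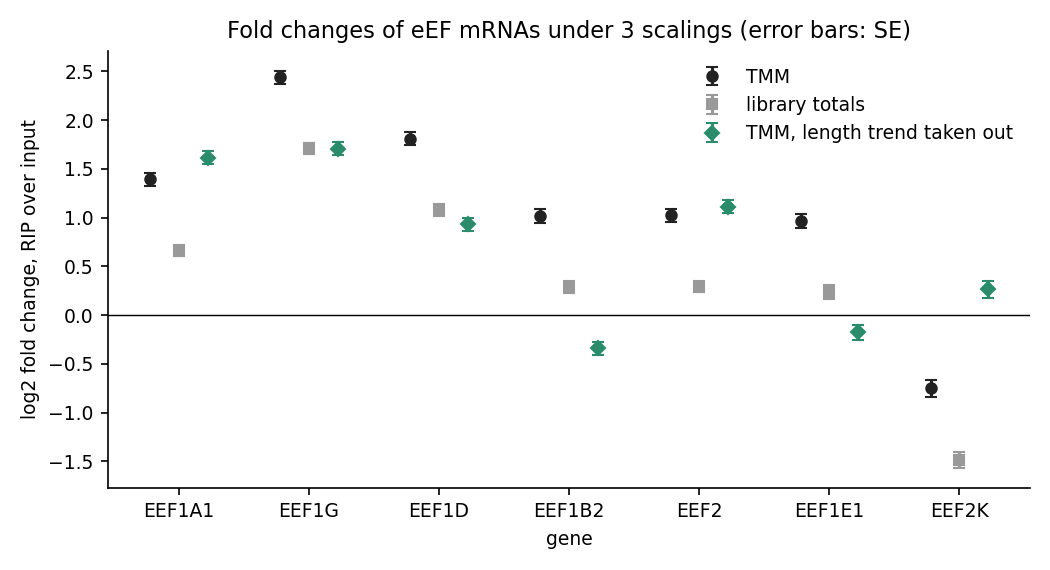
Log2 fold change of RIP over input for each eEF gene with TMM factors, with library totals and with the length trend taken out, with standard errors. EEF1G, EEF1A1, EEF2 and EEF1D are above 0 on all 3 scales, whereas EEF1B2, EEF1E1 and EEF2K change sign once length is accounted for.

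Ratios between members within one library do not depend on how libraries are scaled. They are given as a description, with no test. Both a ratio and its change between groups can depend on the lengths of the 2 mRNAs. Each change is therefore set beside the difference of the length-corrected log2 fold changes. For each EEF1D fragment there were 1.13 and 1.1 EEF1B2 fragments in RIP, against 1.92 and 1.95 in input. The log2 ratio of EEF1B2 over EEF1G was -3.65 ± 0.032 in RIP and -2.22 ± 0.014 in input, and that of EEF1D over EEF1G was -3.80 ± 0.003 in RIP and -3.18 ± 0.002 in input (SD, n = 2 each). EEF1G thus gained on both of its exchange partners, and EEF1D on EEF1B2, by amounts many times the spread of the libraries. The log2 changes of EEF1B2 over EEF1D, EEF1B2 over EEF1G and EEF1D over EEF1G were -0.795, -1.42 and -0.63, against -1.27, -2.05 and -0.77 with length corrected for.

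EEF1A1 over EEF1G was 2.05 and 2.11 fragments to 1 in RIP, against 4.14 and 4.44 in input. This log2 change of -1.05 was nearly absent with length corrected for (-0.09). Against EEF2 the carrier gained, with ratios of 4.78 and 4.87 in RIP and 3.74 and 3.72 in input (log2 change 0.37; 0.505 with length corrected for). The kinase and its substrate moved apart: EEF2 fragments outnumbered EEF2K fragments 175 and 169 to 1 in RIP, against 47.1 and 53.5 in input (log2 change 1.78; 0.85 with length corrected for). The ratio of EEF1B2 over EEF2 overlapped between groups, at 0.189 and 0.181 in RIP and 0.192 and 0.181 in input. With length corrected for, the difference between EEF1B2 and EEF2 was -1.45 on the log2 scale.

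**Figure D4:**
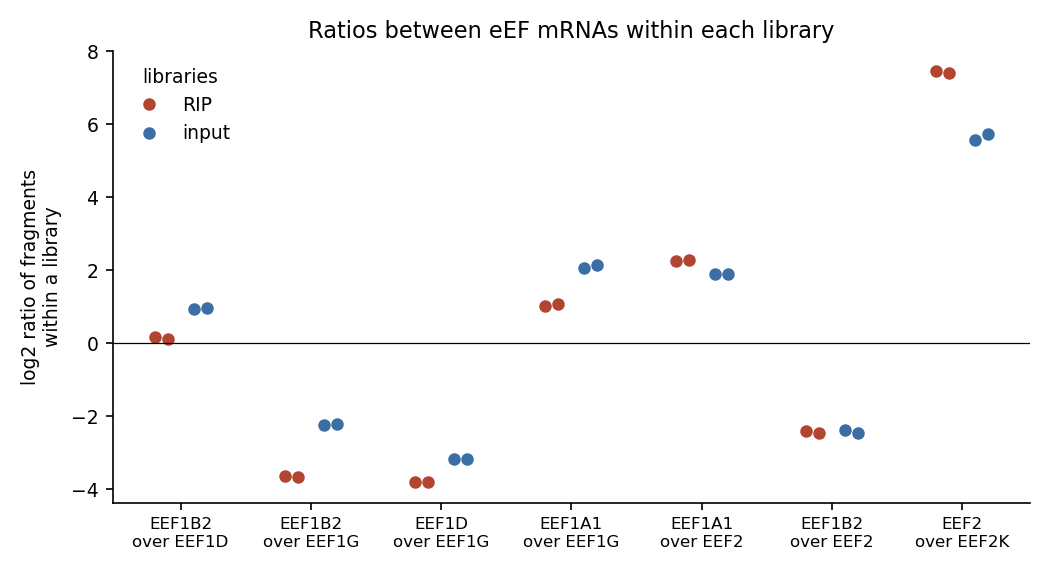
Log2 ratio of the fragments of 7 pairs of eEF genes within each RIP (red) and input (blue) library. Without length correction EEF1G gains on EEF1B2, EEF1D and EEF1A1 in RIP, EEF2 gains on EEF2K, and EEF1B2 over EEF2 overlaps between groups; with length corrected for, the change of EEF1A1 over EEF1G is -0.09 and that of EEF1B2 over EEF2 is -1.45.

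Levels of different genes are compared here on the authors' FPKM scale, which is per length. In RIP the order was EEF1G (8408 ± 56.8), EEF1A1 (7049 ± 100), EEF2 (1636 ± 1.9), EEF1B2 (1374 ± 38.1), EEF1D (719.1 ± 1.92), EEF1E1 (118 ± 8.73) and EEF2K (3.90 ± 0.102) (mean FPKM ± SD, n = 2). In input EEF1A1 came first (2651 ± 138) and EEF1G second (1530 ± 4.77), followed by EEF2 (795 ± 44.5), EEF1B2 (672.1 ± 6.7), EEF1D (193.6 ± 1.32), EEF1E1 (54.6 ± 4.08) and EEF2K (6.49 ± 0.227). Neighbours in either order did not overlap. The closest were EEF2 and EEF1B2, 1.19-fold apart in RIP and 1.18-fold in input, and EEF1G and EEF1A1 in RIP, 1.19-fold apart. The only change of order between groups was that EEF1G passed EEF1A1. Division by length does not take out the length trend of the fold changes. The log2 change of EEF1A1 over EEF1G was -1.05 in fragments and -0.09 with length corrected for. FPKM depends on which transcript lengths the authors' software assigned: the effective length of EEF1D was 0.417 and 0.416 in RIP and 0.436 and 0.435 in input, and that of EEF1E1 0.288 and 0.305 in RIP and 0.324 and 0.323 in input, while it did not move for EEF1A1, EEF1G, EEF2 and EEF2K.

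Genes with the most similar values over the 4 libraries were found by the Euclidean distance of log2 CPM, which takes in level and change. Nearest to EEF1G were the ribosomal protein mRNAs RPLP0 (distance 0.544) and RPSA (1.02), then GNB2L1 (1.09), which codes for the ribosome-bound scaffold RACK1. They rose by log2 fold changes of 2.59, 2.66 and 1.93. RPS6, GAPDH and RPS4X were nearest to EEF2 (0.304, 0.599 and 0.805), with log2 fold changes of 1.30, 1.20 and 1.36. EEF1A1 had no close neighbour at its level, the nearest being RPS2 at 2.32, EEF1G at 3.32 and RPLP0 at 3.85. EEF2K had many genes near it at its low level, led by RUFY1 (0.0693), THADA (0.0756) and MAGI3 (0.0849), with log2 fold changes of -0.72, -0.78 and -0.81. With length corrected for, RPLP0, RPSA and GNB2L1 were at 1.60, 1.58 and 0.85, RPS6 was at -0.09 and RPS4X at 0.13, neither called, and GAPDH was at 0.36. RUFY1, THADA and MAGI3 were then at -0.87, -0.05 and 0.10, the last 2 not called.

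Other genes that serve elongation moved in both directions, as tested genes did in general. Over all tested genes 38.0% were higher and 39.7% lower. These shares were 33.5% and 34.7% after length correction, and 17.0% and 65.5% on library totals. Of 11 genes for diphthamide, the modified histidine of eEF2, and for the methylation of eEF1A and eEF2, 7 were higher, 1 lower and 3 not called, with a median log2 fold change of 0.61 (5 higher and 3 lower after length correction, 3 and 4 on library totals). DPH2 and DPH1, of the first step of diphthamide synthesis, rose 2.61-fold and 1.71-fold, and FAM86A, the eEF2 lysine methyltransferase gene, rose 2.26-fold. With length corrected for they stood at 1.16, 0.42 and 0.89 (log2), and DPH1 was not called on library totals (0.05, edgeR adjusted p = 0.547). A list of 14 other elongation, release and rescue factors also counts VARS, a valyl-tRNA synthetase gene. Of the 14, 7 were higher and 3 lower (median 0.17). After length correction 10 were higher and 2 lower (median 0.56), and on library totals 1 and 10. EIF5A, which helps ribosomes past difficult peptide bonds, rose 3.06-fold, at 1610 and 1522 CPM in RIP and 498.3 and 524.4 CPM in input (log2 fold change 0.72 when corrected for length). The release factor gene GSPT1 rose 1.28-fold, stood at 1.34 (log2) when corrected for length and turned to -0.38 on library totals. Selenocysteine insertion showed both directions: EEFSEC, its elongation factor, rose 1.89-fold (log2 fold change 0.92; 0.57 after length correction; 0.19 and not called on library totals). SECISBP2, which recruits that factor to the mRNA, was at 17.4 and 23.8 CPM in RIP against 51.9 and 49.9 CPM in input (log2 fold change -1.30; -1.10 after length correction).

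The mitochondrial counterparts had 2 of 5 genes higher and 2 lower, with a median of -0.09 (1 and 2 after length correction, 0 and 3 on library totals). All tested genes had 38.0% higher and 39.7% lower, and 17.0% and 65.5% on library totals. TUFM, the mitochondrial EF-Tu gene, rose 1.68-fold and its exchange factor gene TSFM 1.59-fold. The translocase gene GFM1 had a log2 fold change of -0.09 (edgeR adjusted p = 0.2299), and was called lower on library totals (-0.82, adjusted p = 2.982e-08). After length correction TUFM was at 0.33 and TSFM at 0.08 (adjusted p = 0.3338), and on library totals neither of these 2 was called. The multi-tRNA synthetase complex, which holds the EEF1E1 protein, had 4 of 10 genes higher and 4 lower (median -0.03; also 4 and 4 after length correction; 1 and 8 on library totals). The glutaminyl-tRNA synthetase gene QARS rose 2.53-fold, at 421.5 and 416.1 CPM in RIP and 168.2 and 163.1 CPM in input. AIMP1, a scaffold of that complex, was at 13.1 and 12.3 CPM in RIP, against 49.7 and 52.3 CPM in input (log2 fold change -2.00). Length correction left QARS at 1.28 and AIMP1 at -2.11. IARS and EPRS, the most abundant genes of the list, had log2 fold changes of -0.25 and -0.19, which turned to 0.29 and 0.44 with length corrected for.

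A list of 15 genes for the regulation of eEF2 kinase also counts the phosphatase subunit genes PPP2CA, PPP2CB and PPP2R1A. Of the 15, 10 were higher and 4 lower (median 0.42), where all tested genes had 38.0% higher and 39.7% lower. After length correction 8 were higher and 6 lower, and on library totals 3 and 9. RPS6KB2, an S6 kinase gene, rose 4.49-fold, at 225.8 and 211.5 CPM in RIP and 46.5 and 51.0 CPM in input. PRKAA2, an AMP kinase catalytic subunit gene, was at 24.9 and 28.6 CPM in RIP and 97.4 and 95.6 CPM in input (log2 fold change -1.85). After length correction they were at 1.58 and -0.62. The calmodulin genes CALM3 and CALM2 rose 1.97-fold and 1.59-fold, and CALM2 turned to -0.24 after length correction and -0.06 on library totals. Of 17 TOP mRNAs that code for neither ribosomal proteins nor eEFs, 14 rose and 3 fell, with a median of 0.70. After length correction they had 8 higher and 6 lower and a median of 0.00, and on library totals 6 higher and 8 lower. GLTSCR2, EIF3F and GNB2L1 rose 4.39-fold, 4.09-fold and 3.82-fold, and the nucleophosmin gene NPM1 rose 1.38-fold. Length correction left the first 3 at 1.39, 1.08 and 0.85, and NPM1 at -0.34. On library totals NPM1 was at -0.27.

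The libraries held 25655455 and 25998032 fragments in RIP and 18131602 and 17310753 in input. The bait's mRNA, SIRT7, was at 43955 and 43199 CPM in RIP, against 1148 and 1181 CPM in input, and the counts cannot separate transgene from endogenous gene. All 4 genes known to be active in HEK293 cells (PAX2, LIN28B, NEFL, NEFM) were tested, with a summed level of 112 CPM in both RIP libraries and 229 and 223 CPM in input. PAX2, a kidney lineage marker, was near the detection limit, with a mean of 0.493 CPM over the 4 libraries. LIN28B and NEFL were lower in RIP (log2 fold changes -1.43 and -1.04), and NEFM was at -0.12 (edgeR adjusted p = 0.302). Of 13 markers of other cell types analysed here 3 had no fragment in any library and 3 were tested, with a summed level of 5.52 and 7.88 CPM in RIP and 7.01 and 6.33 CPM in input. LYZ was lower in RIP (log2 fold change -1.21), and CD68 (0.64) and COL3A1 (0.41) did not pass the test. With length corrected for, COL3A1 was called higher (1.14, edgeR adjusted p = 0.0005455). Each was below 5 CPM in every library.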

How the data were processed

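RNA from 2 SIRT7 RIP and 2 total input libraries was analysed. The submitters' processing notes name Cuffdiff 2.2.1, TopHat2 2.0.13, Bowtie2 2.2.6, cutadapt 1.5 and build hg19; annotation and strand setting were not given in the sources used here. The authors deposited expected counts (estimated fragments per gene), the same fragments as a scaled signal, and FPKM values, per the file headers. The table numbers libraries from 0 and the titles from 1, so library numbers rest on that offset. Across genes, the deviations of same-numbered libraries from their group means had a correlation of 0.0473. With 2 libraries of each kind this cannot tell whether the numbers pair them, and the main fit used no pairing. The chi-square per gene between libraries of one kind was 3.4 in RIP and 6.17 in input, above sampling noise, and all were kept as separate samples.

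Expected counts were rounded and tested in R 4.3.3 with edgeR 4.0.16: filterByExpr defaults (minimum count 10, total 15), TMM factors (0.7767 and 0.7759 in RIP, 1.298 and 1.278 in input), then glmQLFit and glmQLFTest on group alone, with a Benjamini-Hochberg adjusted p over 14555 genes and a threshold of 0.05. SE is the log2 fold change over the square root of F. Length correction entered a loess trend (span 0.4) of the fold change on log2 effective length as offsets. The distances between genes used log2(CPM + 0.5). DESeq2 1.42.0 and limma 3.58.1 gave alternatives. Libraries held 17310753 to 25998032 fragments; without molecular identifiers this depth limits counting error alone.

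Named genes were the members, SIRT7, other EEF symbols, the 2 most abundant and 2 most significant tested genes of each list, and the 3 nearest genes of EEF1A1, EEF1G, EEF2 and EEF2K. Members and lists were chosen with earlier results of these data known. 1 marker gene of another cell type is not reported here.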

Additional observations from a re-analysis of the deposited data

How the results depend on the processing

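Of 96 values of the 7 members under alternatives, 90 kept their direction and their side of the threshold; 6 reversed, all with the length trend taken out. These were EEF1B2 (-0.340, and -0.342 with the replicate block), EEF1E1 (-0.175 in both) and EEF2K (0.264, and 0.263 with the block). The block with length offsets called 2 members lower in place of 1, since EEF1E1 crossed the threshold (adjusted p = 0.04963). Leaving out each library in turn gave 6 members higher and 1 lower throughout. EEF1A1 and EEF1G are among the 10 most abundant genes and have no value without them. Library totals moved the counts over all genes to 2479 higher and 9539 lower, from 5531 and 5783, and the share of higher calls from 48.9% to 20.6%. The replicate block alone changed no call of a member.

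Among 555 values of other named genes 499 kept their call, 16 lost it, 14 gained one and 26 reversed. Length offsets turned GFM1 to 0.113 (0.114 with the block), IARS to 0.288 (0.288), EPRS to 0.441 (0.441), CALM2 to -0.244 (-0.240), NPM1 to -0.345 (-0.345), NEFM to 0.013 (0.014), RPS6 to -0.090 (-0.090) and MAGI3 to 0.103 (0.103). Library totals turned GSPT1 to -0.375, TSFM to -0.060, CALM2 to -0.058, NPM1 to -0.266, CD68 to -0.093 and COL3A1 to -0.317. Leaving out 1 library gave EEF1E1-MUTED values from -0.931 (without the second RIP library) to 0.310 (without the first input library; 0.255 without the first RIP library), and NEFM values from -0.249 to 0.013. EPRS lost its call without either RIP library (adjusted p = 0.1074 and 0.2645), as did IARS and LYZ without the first (0.1538 and 0.05214), while CD68 passed the threshold without the first RIP library (0.04697), with RLE factors (0.04689), with limma (0.0321 and 0.02165) and with the replicate block (0.04867). The block also called EEF1E1-MUTED lower (-0.241, adjusted p = 0.02386; 0.04027 with length offsets), as did library totals (0.007198), which called GFM1 and NEFM lower too (2.982e-08 and 2.984e-06). COL3A1 was called higher with length offsets (1.138, and 1.132 with the block). Apart from the shift of the median by library totals and the trend that the length offsets remove, the cause was not tested. EEF2K, the lowest of the members by FPKM, rested on 588 to 1233 fragments a library, and whether depth affected its values was not tested.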
